A study of Homo sapiens with 131 samples.

Results

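The genes examined here are those that encode proteins of the mitochondrial ribosome and carry an MRPL or MRPS symbol. They were taken from the deposited gene table by symbol alone, as MRPL or MRPS followed by a number and at most 1 letter from A to C. This gave 78 genes of 60708 in the table, of which 61 also had a DNA copy state and an unspliced RNA value. Of the 78, 51 belong to the large subunit and 26 to the small subunit. The large subunit count includes MRPS30 and MRPS18A, whose products sit in that subunit in spite of their symbols. MRPS36, whose product is now known as a subunit of the oxoglutarate dehydrogenase complex, was counted apart.

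Single HAP1 cells were sorted from mid-S phase, and their DNA and RNA were separated and sequenced by scRR-seq, so that the replication state of a gene and its RNA can be read in the same cell. HAP1 is a near-haploid human line derived from the leukaemia line KBM-7, in which an unreplicated gene is present once (1-copy) and a replicated gene is present in both sister chromatids (2-copy). All cells were untreated and came from 1 biological experiment, so that the cell is the unit of replication and the spread between cells includes technical noise. The tables hold 56 mid-S cells. A percentage replication score, the share of called 40-kb bins at 2-copy, ran from 39.7% to 67.2% with a median of 54.1%, and 55 cells lay between 40 and 70%.

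The mitochondrial ribosome translates the messages of the mitochondrial genome, which code for core subunits of the respiratory chain complexes and the ATP synthase. Its proteins are all encoded in the nucleus, made in the cytosol and imported. Some have counterparts in bacterial ribosomes, here called bacterial-type, and others, called mitochondria-specific, were added in the mitochondrial lineage. Most of these proteins are present once in each ribosome, while their genes lie on many chromosomes.

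Cells numbered up to 65 (29 cells, the first set) and above 65 (27 cells, the second set) differed as libraries, although the labels name no batch. RNA from the mitochondrial genome took 11.03% ± 3.79 (SD) of TPM in the first set and 3.55% ± 0.666 in the second, cytosolic ribosomal protein genes took 13.05% ± 1.42 and 20.3% ± 2.22, and the summed unspliced values ran from 425181 to 1353931 per cell. Results are therefore also given within each set or with the set taken into account. The line markers BCR, ABL1, VIM, TOP2A, MKI67 and PCNA had mean levels of 9.37 to 719 TPM, while of the blood markers SPI1 and HBB were listed at 0 in every cell, PTPRC, CD33 and GATA1 were above 0 in 1, 7 and 1 cells, and CD34 did not exceed 1.49 TPM.

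Promoter sequences from RefSeq (GRCh38.p14, the assembly of the files), from 250 bases before to 50 after the annotated start, were matched by symbol for 69 of the 78 members. They are shown because the members hold, more often than other promoters, the letters of a YY1 site within this window. YY1 is a zinc finger factor known to bind promoters of nuclear genes for mitochondrial proteins. The letters AAGATGGC occurred on either strand in 20 of 69 members (29%), against 5.28% of 10894 promoters of expressed genes (TPM no lower than 1 in 20% or more of the cells) and 3.03% of all 27305 promoters. In 15 of the 20 the letters began after the annotated start and in 5 before it. The letters contain ATG, and whether a match is a start of translation was not tested. Windows of 10 bases on either side are given for the 5 members with the highest mean TPM that hold them, with AAGATGGC in capitals, read on the strand that holds it.
MRPL20, chr1:1407261-1407288, gene on the minus strand: cgacccgggcAAGATGGCagcggcgctg
MRPS24, chr7:43869481-43869508, gene on the minus strand: cgcttggcccAAGATGGCggcctccgtg
MRPL51, chr12:6493224-6493251, gene on the minus strand: ggtaaggcccAAGATGGCtgtcttcgcc
MRPL42, chr12:93467512-93467539, gene on the plus strand: ggattgaaacAAGATGGCgggttcgtgg
MRPL36, chr5:1799855-1799882, gene on the minus strand, letters on the other strand: gccaggaaggAAGATGGCggcggggggg

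Other promoter letters differed less between the members and expressed genes. The NRF1 core GCATGCGC was found in 6 members (8.70%, against 5.38% of the expressed genes and 3.27% of all promoters). The ETS core CCGGAAGT was found in 11 members (15.9%, against 8.62% and 4.44%), the CCAAT box letters CCAAT in 20 (29%, against 37.0% and 35.7%) and the GC box letters GGGCGG in 42 (60.9%, against 69.2% and 44.6%). Both strands were searched, and none of these motifs contains another. A match is a description of the letters and not of binding. The members with AAGATGGC had a median of mean TPM of 72.6 and those without it 57.4, a difference that was not tested.

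The 250 bases before the start are shown for MRPL44 and MRPL3, with motif letters in capitals. These 2 members had an unadjusted p under 0.05 in the copy-state test described further on, and neither passed after adjustment. MRPL44 encodes a large subunit protein with a ribonuclease III-like fold, and its window holds a CCAAT box and 4 GC boxes, each on the strand opposite to the gene. MRPL3 encodes a bacterial-type protein of the large subunit, and its window holds the ETS core alone.
MRPL44, chr2:223957213-223957462, plus strand: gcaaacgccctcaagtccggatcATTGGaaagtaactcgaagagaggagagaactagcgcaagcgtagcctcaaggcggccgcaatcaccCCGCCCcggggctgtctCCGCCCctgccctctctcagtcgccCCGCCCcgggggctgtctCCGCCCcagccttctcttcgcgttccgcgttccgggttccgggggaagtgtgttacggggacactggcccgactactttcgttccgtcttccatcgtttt
MRPL3, chr3:131502972-131503221, minus strand: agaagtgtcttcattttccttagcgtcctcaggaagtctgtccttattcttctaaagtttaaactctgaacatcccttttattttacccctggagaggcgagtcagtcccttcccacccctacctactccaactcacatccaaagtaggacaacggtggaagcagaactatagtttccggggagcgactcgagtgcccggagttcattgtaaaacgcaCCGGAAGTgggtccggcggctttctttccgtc

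Starts of the members often lay close to the start of a gene on the opposite strand. Counting expressed neighbours, 19 of the 78 members (24.4%) had a head-to-head neighbour within 1000 bp, against 12.2% of all 17132 expressed genes. The neighbours include TCP1 at MRPL18, PSMA2 at MRPL32, NDUFS6 at MRPL36, NDUFB5 at MRPL47, SARS2 at MRPS12 and FAU at MRPL49. MRPL46 and MRPS11, 1 member from each subunit, are head-to-head neighbours of each other. Of the members, 49 overlap another annotated gene and 23 overlap 1 on the same strand. The sources used here do not say if reads were counted by strand, and the values of overlapping members are uncertain.

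All members were expressed. Of the 78 genes, 46 had a TPM above 0 in every cell, and the least often detected, MRPL17, was above 0 in 50 of 56 cells. Mean TPM, which is per length and so allows genes to be compared, had a median of 62.3 over the members, against 23.7 over the 13542 genes above 0 in more than 50% of cells. Cytosolic ribosomal protein genes, a family of 86 genes in the table, had a median of 1670.18. The members together made up 0.586% ± 0.0732 (SD, n = 56 cells) of TPM, and the cytosolic family 16.5% ± 4.09.

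MRPL20, a bacterial-type protein of the large subunit, was the highest at 234 ± 104.4 TPM (SD, n = 56; lowest 71.8, median 209, highest 617). MRPS24 followed at 198 ± 83.6 TPM (22.5, 192 and 441), MRPL51 at 186 ± 79.5 (7.36, 200.1 and 418), MRPL3 at 183 ± 65.8 (12.6, 177 and 377) and MRPL9 at 174 ± 85.5 (19.8, 164 and 403). The ranges over cells of these 5 genes overlapped widely, and the order among them was not separated by the spread between cells, although within cells MRPL20 exceeded MRPS24 by 36.5 ± 17.9 TPM (SE).

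At the other end, MRPL50 had 12.3 ± 9.87 TPM (0, 10.1 and 45.3) and MRPL17, a bacterial-type protein, 13.7 ± 13.3 TPM (0, 10.1 and 68.6). MRPS17, also with a bacterial counterpart, had 21.1 ± 14.5 TPM (0, 17.6 and 61.5), MRPL57 22.2 ± 11.7 (1.80, 21.3 and 60.5) and MRPL54 23.4 ± 17.97 (0, 20.4 and 77.6). The highest mean was thus 19.1 times the lowest among genes whose products enter the same subunit. Along the order of means, only 3 of 77 neighbouring pairs differed by more than 2 SE of their difference within cells. The plot of mean TPM by gene shows the gradual decline between 16 genes at 100 TPM or more and 5 genes under 25 TPM.

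**Figure D1:**
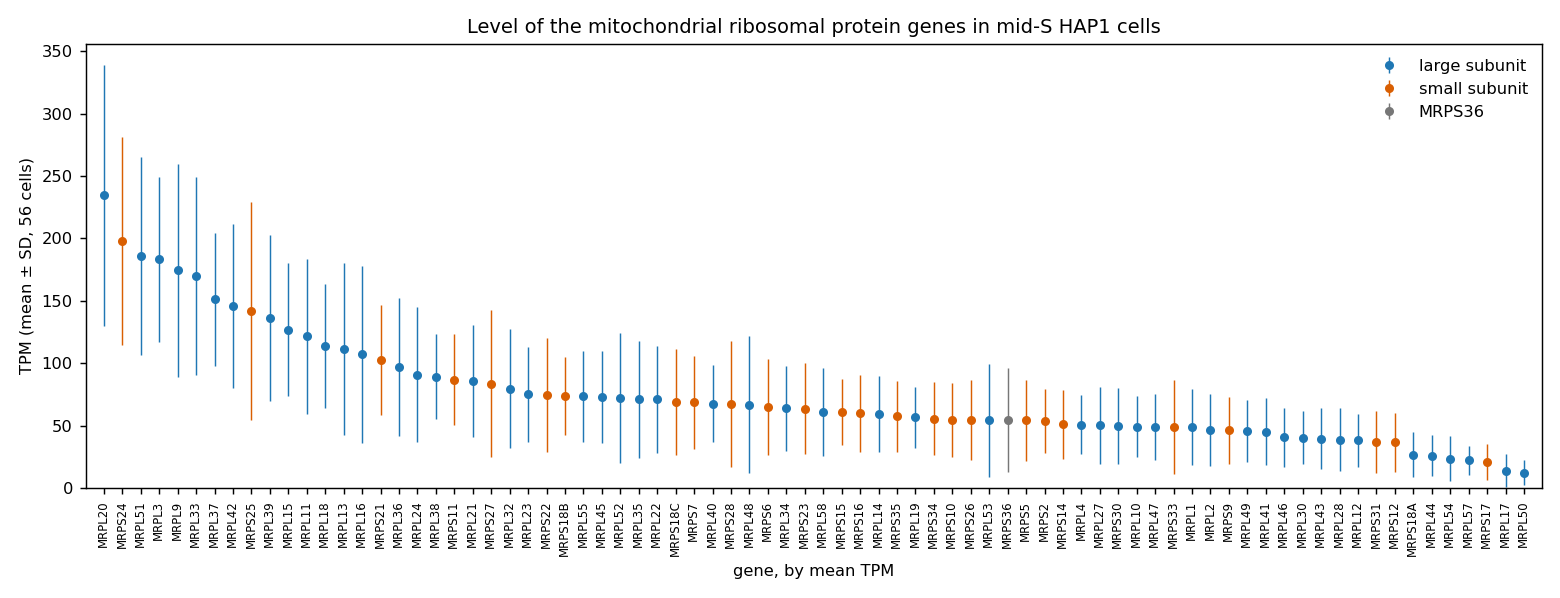
Mean TPM of each of the 78 members over 56 mid-S cells, in descending order; bars are the SD over cells, coloured by ribosomal subunit, with MRPS36 in grey. Large and small subunit genes are mixed along the order, from MRPL20 at 234 TPM to MRPL50 at 12.3 TPM.

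Large and small subunit genes had similar levels. The median of mean TPM was 66.6 over the 51 large subunit genes (12.3 to 234) and 60.3 over the 26 small subunit genes (21.1 to 198). Per gene, the large subunit averaged 78.9 ± 11.1 TPM (SD over 56 cells) and the small subunit 68.7 ± 8.23 TPM, and the large subunit was the higher in 49 of 56 cells. The ratio of large to small differed between the library sets, at 1.09 ± 0.119 in the first and 1.22 ± 0.104 in the second. Within the large subunit, bacterial-type genes (28) had a median of 73 TPM and mitochondria-specific genes (23) 54.3 TPM. In the small subunit these were 60.3 (16) and 60.5 (10). MRPS36 had 54.2 ± 41.8 TPM and was above 0 in 51 cells.

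The cell-to-cell spread of single members was moderate. The coefficient of variation had a median of 56.2%, against 71.2% over the 10120 genes with a mean TPM of at least 10 and 30.4% over the cytosolic ribosomal protein genes, which are higher in level. It was smallest for MRPL37 (35.3%), MRPL3 (35.9%) and MRPL38 (38.1%), all in the large subunit. The largest values were those of MRPL17 (97.3%), MRPL53 (83.4%) and MRPL48 (82.3%). MRPL17 is also among the lowest in level, while MRPL53 and MRPL48 had 54.3 ± 45.3 and 66.6 ± 54.8 TPM.

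Between the library sets, mean TPM was higher in the second set for 50 members and lower for 28, and 1 member differed by more than 2 times. This was MRPS25, a mitochondria-specific protein of the small subunit, at 196 ± 85.3 TPM in the first set and 83.7 ± 39.5 TPM in the second. MRPS25 was chosen for mention after its values were seen.

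Summed over the 78 members, the level varied less between cells than that of single members, as a sum over weakly related genes does by averaging. It ran from 4502 to 8000 TPM with a median of 5850 and a coefficient of variation of 12.5%, and was 5654 ± 720 TPM in the first set and 6090 ± 687 TPM in the second. Single members were only weakly related to each other across cells. The median Spearman's rho over all pairs was 0.047 across the 56 cells, 0.035 within the first set and 0.038 within the second, against 0.004 over genes with a mean TPM of at least 10. Over all cells 63.1% of the pairs were above 0, against 51.1% over those genes. Cytosolic ribosomal protein genes had a median pairwise rho of 0.69 over all cells, of 0.26 in the first set and of 0.30 in the second. Their level was far higher (median of mean TPM 1670, against 62.3) and their coefficient of variation smaller (median 30.4%, against 56.2%). The 2 families are therefore not compared at a like level. Genes measured in the same cells share a library, and the pairs are a description only. The 2 subunit sums were related across cells, with Pearson's r of 0.66 (n = 29) and 0.77 (n = 27) within the sets and 0.65 (n = 56) over all cells.

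The family sum was lower where the share of mitochondrial RNA was higher in the first set (Pearson's r of -0.60, Spearman's rho of -0.66, n = 29, and r of -0.54 without the 2 cells farthest from the median share). No such relation was seen in the second set (r of -0.04, rho of 0.02, n = 27). TPM sums to a fixed total, so these shares are not independent of each other.

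The table also holds 79 genes whose symbols mark them as pseudogenes of 36 members. In every cell 55 of them were at 0, and 9 had a mean TPM of at least 1. MRPS10P1 reached 41.3 ± 71.5 TPM, against 54.5 ± 29.8 TPM for MRPS10 itself, and MRPL45P2 26.7 ± 32.1 TPM against 72.8 ± 36.8 TPM for MRPL45. Reads may have been split between such pairs, so that both levels are uncertain. MRPL3P1, named as a pseudogene of MRPL3, was above 0 in 1 cell, at 0.770 TPM.

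Unspliced RNA of the members was sparse. The deposited unspliced values are, by the study's methods, counts over the gene body less those over exons, although their table is titled TPM. Their sums differ between cells and in some exceed the depth to which the methods say libraries were downsampled, so the unit is taken as a count and is not certain. They had a median of 0 over cells for 43 of the 61 members with such a value, and 17 members were above 0 in more than 50% of cells. In every cell the value was 0 for MRPL2, MRPL17, MRPL40, MRPL41, MRPL49, MRPL53, MRPL57, MRPS2, MRPS12, MRPS16 and MRPS24. The highest medians were those of MRPS25 (141, above 0 in 54 cells), MRPS6 (119, above 0 in 47 cells) and MRPS5 (75.1, above 0 in 53 cells), which were named after their values were seen. These values are not per length and do not compare genes.

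The 17 members without a copy state could not be placed in S-phase. Chromosomes 1 and 15 were left out by the authors, which removed MRPL9, MRPL20, MRPL24, MRPL37, MRPL55, MRPS14, MRPS15 and MRPS21 on chromosome 1 and MRPL46 and MRPS11 on chromosome 15. MRPL12, MRPL23, MRPL28, MRPL45, MRPS18B, MRPS34 and MRPS36 have no row in the copy-state table either, for a reason that the sources do not state. The other 61 had a call in 47 to 55 of the 55 cells scored 40 to 70%.

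Most members were replicated early, at a share close to that of expressed genes in general. The median share of cells at 2-copy was 92.7% over the 61 members, against 94.4% over the 10278 expressed genes with a copy state and 81.8% over all 45404 genes with one. In all comparisons of timing or copy state, expressed genes are those with a TPM above 0 in more than 50% of cells. With the range of shares cut into 9 equal parts, 42 members (68.9%) were early (more than 77.8% of cells at 2-copy), 16 (26.2%) mid and 3 (4.92%) late (at most 22.2%). Of the expressed genes, 71.5% were early, 20.8% mid and 7.72% late, and of 63 cytosolic ribosomal protein genes 84.1%, 14.3% and 1.59%. MRPL34 lay just above the early limit at 78.2% and MRPL35 just below it at 73.1%. Around the late limit were MRPL50 at 25.5% and MRPS5 at 12.96%.

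**Figure D2:**
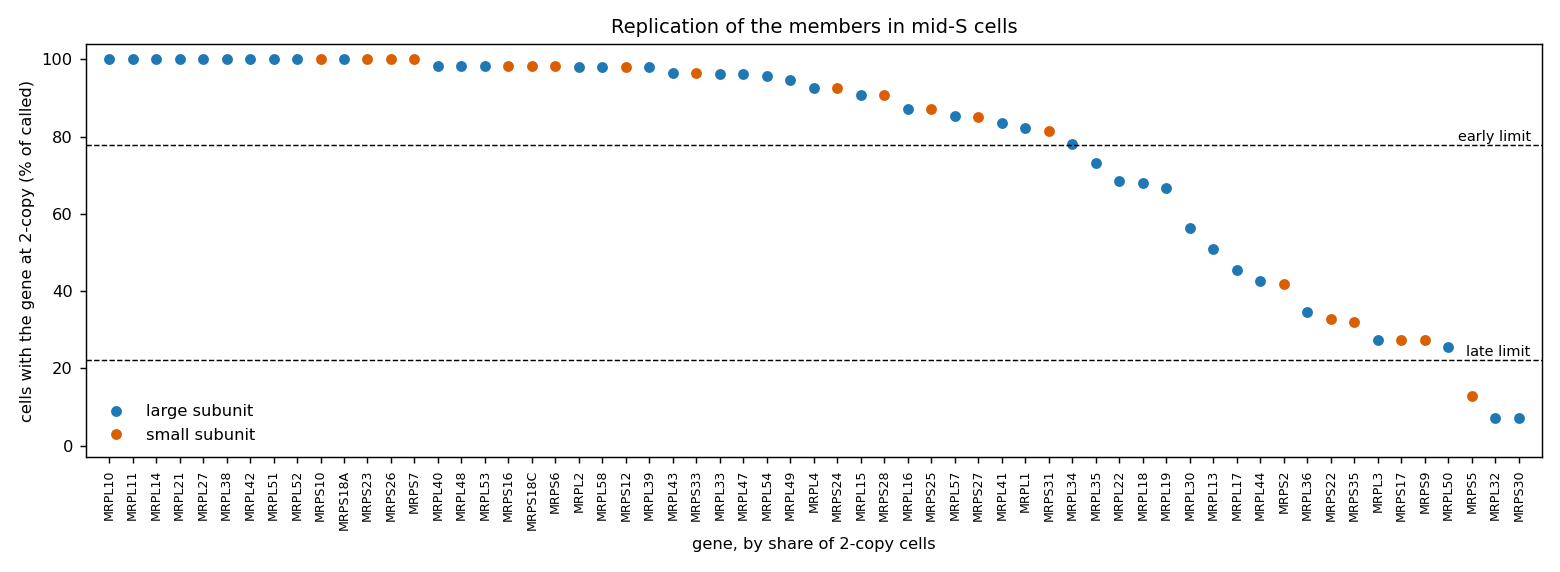
Share of cells at 2-copy for each of the 61 members with a copy state, over the cells scored 40 to 70% in which the gene was called, with the early and late class limits as dashed lines. 14 members sit at 100%, and MRPS5, MRPL32 and MRPS30 lie below the late limit.

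In every cell in which they were called, 14 members were at 2-copy, so the 5 with the highest share are tied among them. These were MRPL10, MRPL11, MRPL14, MRPL21, MRPL27, MRPL38, MRPL42, MRPL51, MRPL52, MRPS7, MRPS10, MRPS18A, MRPS23 and MRPS26. For MRPL51, 55 of 55 cells allow a share as low as 93.5% (exact binomial 95% interval, counting error only). MRPS30 and MRPL32 were replicated last, each at 2-copy in 4 of 55 cells (7.27%, interval 2.02 to 17.6%). They were followed by MRPS5 (7 of 54 cells, 12.96%), MRPL50 (12 of 47, 25.5%), and MRPL3, MRPS9 and MRPS17 (each 15 of 55, 27.3%), the latter being tied. Early and late members thus occur in both subunits: 28 of 41 large and 14 of 20 small subunit genes were early.

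Of the large subunit genes, 16 of 19 mitochondria-specific and 12 of 22 bacterial-type genes were early, with median shares of 98.0% and 80.3%. In the small subunit, 6 of 8 mitochondria-specific and 8 of 12 bacterial-type genes were early, with median shares of 86.2% and 95.4%. These splits are counts of genes and were not tested.

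By timing class, the median of mean TPM was 62.3 over the 42 early members (22.2 to 198), 57.1 over the 16 mid members (12.3 to 183) and 54.2 over the 3 late ones (49.6 to 79.5). Over the 10278 expressed genes with a copy state the class medians were 25.8, 20.4 and 12.7 TPM. The late member MRPL32, whose product has a bacterial counterpart in the large subunit, had 79.5 ± 47.6 TPM, above the median of the early members.

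Some members lie close to each other. MRPS7 and MRPL38 on chromosome 17 are 632268 bp apart and were in the same state in 55 of 55 cells. MRPS18A and MRPL14 on chromosome 6, 425660 bp apart, were in the same state in 52 of 52 cells. MRPL32 and MRPS24 on chromosome 7 differed: at 917600 bp apart, they were in the same state in only 8 of 55 cells, since MRPL32 was at 2-copy in 4 cells and MRPS24 in 51. The members of the first 2 of these pairs were each at 2-copy in every cell with a call, which fixes their agreement.

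The replicated share of the family was also taken in each single cell. Of the members called in a cell (56 to 61), the share at 2-copy ran from 61.4% to 93.4% with a median of 77.96%, and it was above the score of the cell in 56 of 56 cells. It exceeded the share of expressed genes at 2-copy (median 80.2%) in 14 of 56 cells.

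**Figure D3:**
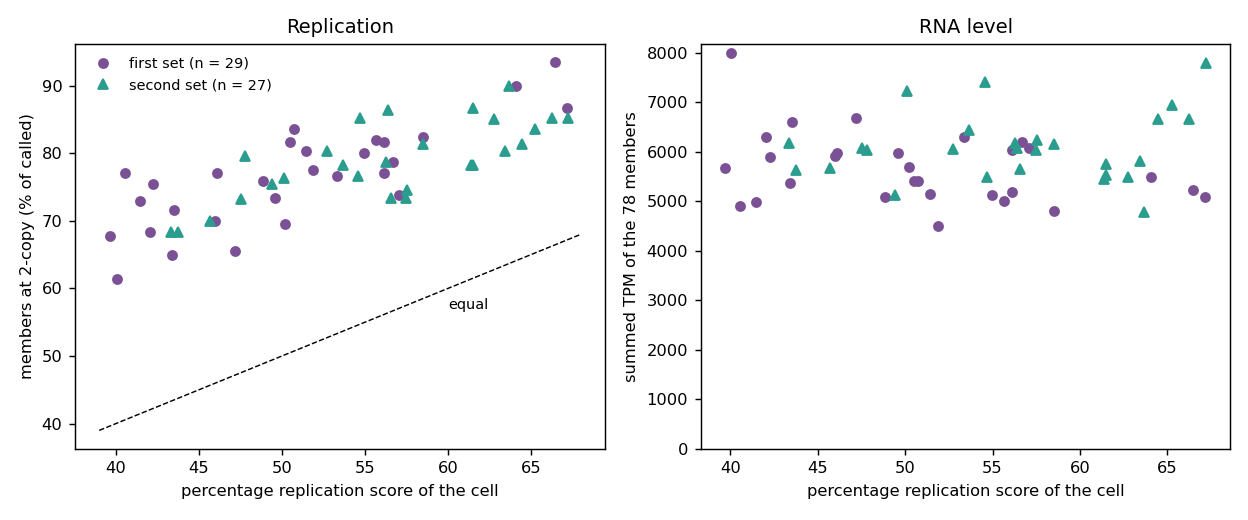
Left, share of the called members at 2-copy in each of 56 cells against the percentage replication score, with the line of equality dashed. Right, summed TPM of the 78 members against the same score; circles are the first library set and triangles the second. All cells lie above the line on the left, while on the right the sum stays between 4502 and 8000 TPM at all scores. The line stands for all called bins. The share of members exceeded that of expressed genes in only 14 of 56 cells. TPM is scaled to a fixed total per cell.

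Whether a member has more RNA once it is replicated was asked for each gene from the difference between cells with it at 2-copy and cells with it at 1-copy. The test was a two-sided Wilcoxon rank-sum test in the 55 cells, for genes with values above 0 in more than 50% of cells, a call in 50% or more and neither state in more than 80% of the called cells. For spliced RNA, 17 members met these limits. MRPL44 and MRPL3 were higher at 2-copy at p < 0.05, and no member was higher at 1-copy. Over all 2431 genes tested, 5.84% were called higher at 2-copy, 2.59% at 1-copy and 8.43% in either direction, so that 2 members of 17 is a count close to this background. No gene passed after Benjamini-Hochberg adjustment (lowest adjusted p = 0.232).

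MRPL44 had TPM of 0 (lowest), 30.9 (median) and 82.0 (highest) in 23 cells at 2-copy and 0, 19.1 and 57.04 in 31 cells at 1-copy. The ranges overlapped over most of their length, with 1 cell at 0 among the former and 3 among the latter. The mean difference was 0.91 ± 0.37 (SE) in log2(TPM + 1), with p = 0.00201, an adjusted p of 0.356 and a permutation p of 0.00176. The direction was the same in both library sets, at 1.05 ± 0.67 in the first (permutation p = 0.160) and 0.83 ± 0.24 in the second (permutation p = 0.00283).

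MRPL3 had 138, 208 and 377 TPM in 15 cells at 2-copy and 12.6, 155 and 282 TPM in 40 cells at 1-copy. Again the groups overlapped, and the lowest cells were all at 1-copy. The mean difference was 0.43 ± 0.16 in log2(TPM + 1), with p = 0.0251, an adjusted p of 0.494 and a permutation p of 0.0240. In neither set alone did MRPL3 pass, with 0.51 ± 0.24 (permutation p = 0.0708) in the first and 0.35 ± 0.21 (permutation p = 0.178) in the second. MRPL3 overlaps another annotated gene on the same strand.

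**Figure D4:**
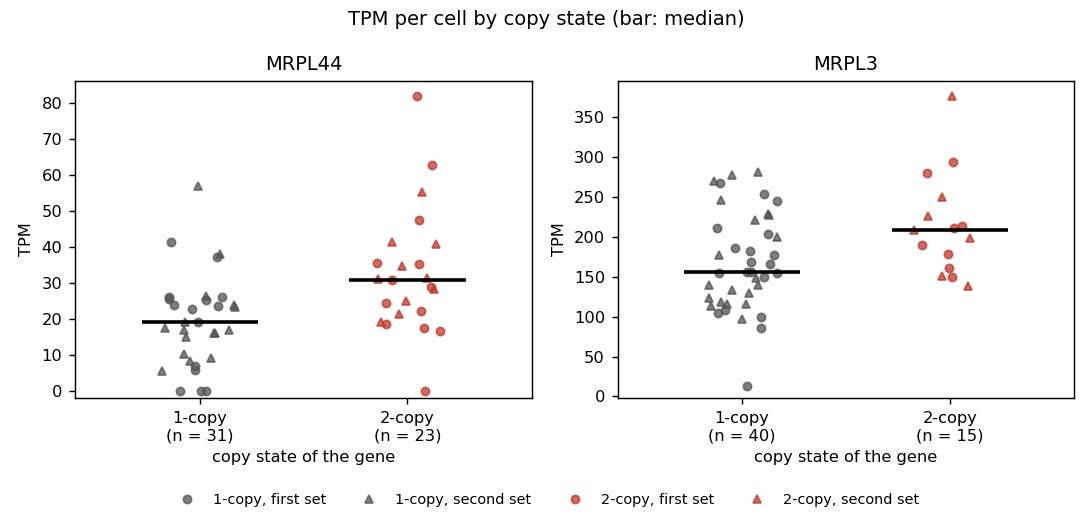
TPM of MRPL44 and MRPL3 in each cell by the copy state of the gene in that cell; circles are the first library set, triangles the second, and bars are medians. The 2-copy medians (30.9 and 208 TPM) lie above the 1-copy medians (19.1 and 155 TPM), and the points overlap.

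The other 15 members tested did not pass, with p from 0.149 to 0.908. The median TPM was higher at 2-copy for 11 of the 17 members and at 1-copy for 6, and over all genes tested it was higher at 2-copy for 56.6%. MRPS22 had medians of 79.2 and 57.8 TPM at 2-copy and 1-copy (difference 0.77 ± 0.37), and MRPL13 109.1 and 90.2 TPM (0.58 ± 0.37). MRPS9 had 36.3 and 44.6 TPM (-0.88 ± 0.60), and MRPL17 7.25 and 10.5 TPM (-0.67 ± 0.45). These 4 genes were named for the size of their difference after it was seen, and their differences were of either sign. The median difference over the members was 0.05 in log2(TPM + 1), against 0.07 over all genes tested. By limma on log2(TPM + 1), 1 member (MRPL44, p = 0.0189) was called at p < 0.05, against 8.02% of all genes tested, and MRPL3 had p = 0.0551.

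Pooled over the 17 members in a model with gene and cell terms, 2-copy exceeded 1-copy by 0.09 ± 0.09 in log2(TPM + 1) (SE clustered by cell, 55 cells), a ratio of 1.06 with a 95% interval of 0.942 to 1.202. The interval lies well below a doubling and includes equality. The same model gave 0.08 ± 0.01 over all 2431 genes and 0.08 ± 0.03 over 9 cytosolic ribosomal protein genes. The members minus the other genes came to 0.04 ± 0.10, which is within the error. The value was 0.12 ± 0.10 for the 12 large subunit and 0.00 ± 0.17 for the 5 small subunit genes, and 0.09 ± 0.15 and 0.08 ± 0.08 in the first and second library sets. In the 41 cells scored 45 to 65% it was 0.01 ± 0.11 over 16 members.

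**Figure D5:**
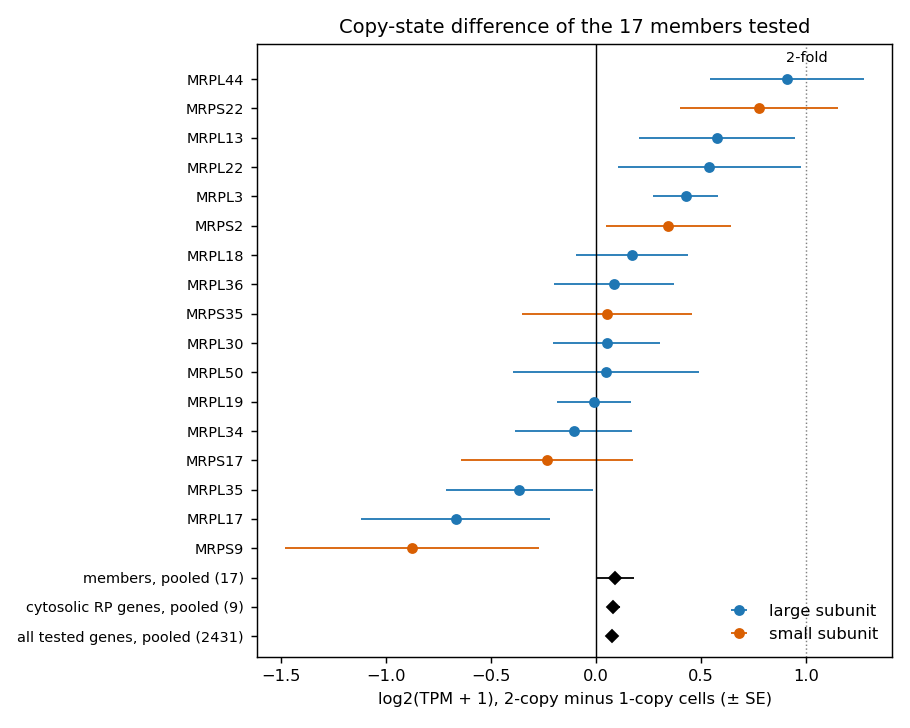
Difference between 2-copy and 1-copy cells in log2(TPM + 1) with its SE for each of the 17 members tested, by subunit, and the pooled differences (diamonds) of the members, of 9 cytosolic ribosomal protein genes and of all 2431 genes tested. Single members lie on both sides of 0, from MRPL44 at 0.91 to MRPS9 at -0.88, and the pooled value of the members is 0.09 ± 0.09, far from the dotted line that marks a doubling.

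In unspliced RNA, which is closer to ongoing transcription, MRPL3, MRPL18, MRPS22 and MRPS35 met the same limits. The other 13 of the 17 members above 0 in more than 50% of cells were in 1 state in more than 80% of their called cells. None of the 4 was called at an unadjusted p under 0.05 by the Wilcoxon test (p from 0.297 to 0.774), against 6.77% of 3118 genes. The same held for a quasi-likelihood type F test built gene by gene from edgeR fits, with TMM factors on rounded values. It called 0 members, against 17.7% of the genes. MRPL3 had unspliced values of 0, 85.5 and 478 in 15 cells at 2-copy and 0, 17 and 442 in 40 cells at 1-copy, a difference of 0.96 ± 1.01 in log2(value + 1). Its groups overlapped over nearly the whole range, and 13 of the 40 cells at 1-copy and 3 of the 15 at 2-copy were at 0. The pooled difference of the 4 members was 0.32 ± 0.35, against 0.11 ± 0.01 over all genes tested. Its ratio had an interval of 0.781 to 2.00, which includes equality and reaches to about a doubling.

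Genes that act with the mitochondrial ribosome were taken from lists of other ribosomal proteins, assembly factors and translation factors. Of 5 ribosomal proteins with other symbols, PTCD3 and GADD45GIP1 were tested and neither was called. Among 25 assembly factors, 2 were tested. MTERF3, which is needed for assembly of the large subunit, was called higher at 2-copy before adjustment, as were 5.84% of all genes tested. MTERF3 had medians of 38.9 TPM in 13 cells at 2-copy and 14.4 TPM in 38 cells at 1-copy (difference 1.25 ± 0.61, p = 0.0254, adjusted p = 0.494). RPUSD4, an RNA pseudouridine synthase, had 42.9 and 60.5 TPM (p = 0.279). All 4 translation factors tested of 14 in the table, GFM1, GFM2, MTIF3 and MTRF1L, had p from 0.159 to 0.969. In unspliced RNA, PTCD3 and RPUSD4 were tested and not called.

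The level and timing of these lists are given beside those of the family, with no test of a difference. The median of mean TPM was 95.8 over the 5 ribosomal proteins with other symbols, 30.2 over the assembly factors and 37.0 over the translation factors, against 62.3 over the family. Of the genes with a copy state, 1 of 3 ribosomal proteins with other symbols, 19 of 21 assembly factors and 7 of 12 translation factors were early, against 42 of 61 members and 71.5% of the expressed genes.

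Along the part of S-phase sampled here, with scores of 39.7% to 67.2%, no member passed the test. Earlier and later S-phase was not covered. With log10(TPM + 1) fitted as a smooth function of the replication score (generalized additive model), 0 of the 78 members had an adjusted p under 0.05 (lowest 0.358), against 0.0409% of 17132 genes. At an unadjusted p under 0.05 there were 5 members (6.41%), MRPL24, MRPL40, MRPL48, MRPS15 and MRPS25, against 10.4% of all genes tested. When the model also held the library set there were again 5, of which MRPL24 (p = 0.0117) and MRPL40 (p = 0.0164) were shared, while MRPL48 (p = 0.0692), MRPS15 (p = 0.0884) and MRPS25 (p = 0.530) no longer passed and MRPL12, MRPL18 and MRPS24 did. Spearman's rho with the score was above 0 for 42 members and below 0 for 36, with a median of 0.018, against 0.004 over all genes tested.

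The largest absolute rho was that of MRPL24, a bacterial-type protein of the large subunit, at -0.42 (r of -0.42, n = 56), with -0.36 in the first set and -0.51 in the second. MRPS25 had a rho of -0.33, with 0.02 in the first set and -0.41 in the second, and it is the gene whose level differed most between the sets. MRPL47 had a rho of 0.30, with 0.09 and 0.33. These values are descriptions over cells that share an experiment.

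The family sum showed no relation with the score over all cells (r of 0.002, rho of 0.007, n = 56, and r of 0.10 with the 2 cells of most extreme score left out). Within the sets r was -0.35 (rho of -0.22, n = 29) and 0.16 (rho of 0.12, n = 27). While the share of replicated members went from 61.4% to 93.4% between cells, r between the summed RNA and the score was of opposite sign in the 2 sets. TPM is scaled to a fixed total per cell, so a rise shared by most expressed genes would not show in this sum.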

How the data were processed

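Deposited tables of DNA state, gene TPM, spliced and unspliced RNA were used, covering 56 of the 63 mid-S cells in the labels; not analysed here were 7 further cells and 5 G1 libraries. DNA reads were aligned by the authors to hg38 (BWA 0.7.17-r1188 in the submitters' processing notes), and 40-kb bins and genes were called 2-copy, 1-copy or without a call. RNA was counted by the authors with the ramdaq pipeline on GENCODE annotation. The deposited gene and spliced values are TPM, scaled to a fixed total per cell, and were equal for all shared genes. The deposited unspliced values were treated like expected counts (by the methods, gene-body less exon reads of downsampled libraries, negative values set to 0), although their table is titled TPM. RNA was taken from the lysate supernatant, so nuclear RNA may be under-represented. Read depth per cell is not kept by TPM.

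The family was chosen by symbol. Its choice, the gene lists and the named genes were fixed with earlier results of these data known. Named were the members with an unadjusted p under 0.05 in the copy-state test and those without a copy state. Also named were the 5 highest and 5 lowest in level and in 2-copy share, the 3 largest in rho and the 3 largest and smallest coefficients of variation. All other names were chosen after their values were seen. Genes were tested over the whole table with SciPy 1.17.1 (Wilcoxon), mgcv 1.9.3, limma 3.58.1 and edgeR 4.0.16 (rounded values), in R 4.3.3, with Benjamini-Hochberg adjustment over all genes tested, and permutation p-values used 100000 resamples. The S-phase model used the expressed genes (TPM no lower than 1 in 20% or more of the cells). The pseudocount was 1. On this scale a fold change of a low gene is understated. The tests were tried on simulated data. P-values describe cells of 1 experiment. Alternatives were other filters, scores, scalings, pseudocounts and tests. The within-set copy-state tests were added after seeing the data.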

Additional observations from a re-analysis of the deposited data

How the results depend on the processing

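The copy-state test called 2 members in spliced RNA under 6 of the other settings in all cells (values above 0 in at least 20% or over 80% of cells, cells scored 45 to 65%, residuals on the score, set or cell mean subtracted). The 2 filters on values kept the same 17 members with the same values, so these settings could not change the count. By limma 1 member was called. In an alternative chosen after seeing the data, the copy-state test called 0 in the first library set and 2 in the second. Of all genes, 132 of 2425 and 168 of 2402 were called in these sets. In the second set MRPL50 was higher at 1-copy (permutation p = 0.0368), with 6 cells at 2-copy. Its difference was 0.70 ± 0.79 in the first set and -0.62 ± 0.40 in the second. In unspliced RNA 0 members were called, except 1 in the first set (MRPS35, lower at 2-copy, permutation p = 0.0278). Of all genes, 191 of 3108 were called in that comparison. The first-set values of MRPS35 were near 0, at 0 to 0.2 in 8 cells at 2-copy and with a median of 0.3 in 18 cells at 1-copy. Its difference had the other sign in the second set (0.31 ± 0.62). The cause of these differences between the sets was not tested. Over all genes, 0 passed the adjusted Wilcoxon test in unspliced RNA (211 at an unadjusted p under 0.05), against 172 and 180 with edgeR (TMM and RLE; 551 and 555 unadjusted). The filter at over 80% of cells left 133 unadjusted calls among 2023 genes in unspliced RNA, against 211 among 3118. In spliced RNA the first set gave 132 among 2425 genes, against 205 among 2431 in all cells. Among the S-phase models, 0 members passed in any setting, while 7 genes of all passed in the main one, 2 with the set as a term and 39 with no filter. The pooled spliced difference lay within 2 SE of 0 in all 9 alternatives (0.00 to 0.12), as did the unspliced one (0.17 to 0.53), and early members were 42, 42 and 41. For the spliced difference, the 2 filters on values kept the same members and could not change it. No paired analysis was possible because the libraries that share a number are the DNA and the RNA of 1 cell and are not compared with each other. The limits on values and states left 4 members in the unspliced comparison, and 8 with values above 0 in at least 20% of cells.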
